A study of Homo sapiens with 9 samples.

Results

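The histone genes were examined in HAL-01 cells in which the MEF2C enhancer had been targeted. They were all protein-coding genes of GENCODE release 44 whose symbol names a clustered H1, H2A, H2B, H3 or H4 gene, together with the named variants H2AX, H2AZ1, H2AZ2, H2AJ, MACROH2A1, MACROH2A2, H3-3A, H3-3B and H4-16. The rule gave 82 of 62700 genes in the deposited table, and of 20046 that code for protein. Of these, 68 lie in the histone clusters, with 55 on chromosome 6, 11 at 1q21 and 2 at 1q42. Another 12 are replication-independent genes outside the clusters. The remaining 2 are H4C16, the GENCODE name of H4-16, on chromosome 12 and H2BC12L on chromosome 21. The clustered genes comprise 6 H1, 17 H2A, 18 H2B, 13 H3 and 14 H4 genes.

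HAL-01 is a cell line of B-cell acute lymphoblastic leukaemia, and its t(17;19) rearrangement gives the TCF3::HLF fusion protein, a transcription factor. All cells carried Cas9 with GFP and a lentiviral sgRNA vector with RFP, and RNA was taken on day 13 after transduction. The MEF2C-enhancer KO libraries carried sgRNA_96 or sgRNA_97, each aimed at an HLF motif within a MEF2C enhancer to which TCF3::HLF binds, and the controls carried the scrambled guide SCR1. Each guide had 3 libraries, numbered 1, 3 and 4, and nothing in the labels says whether these came from separate cultures, so p-values measure the spread between these libraries. All came from 1 cell line, and the share of edited cells was not analysed here. Total counts ranged from 15212462 to 29777361 per library. MEF2C itself averaged 551 ± 13.4 CPM in SCR1 (SD, n = 3) against 509 ± 22.1 CPM over the KO libraries (SD, n = 6). Its log2 fold change of -0.12 (SE 0.04) did not pass the threshold (edgeR adjusted p = 0.0620). It passed with DESeq2 (adjusted p = 0.0270) and without sgRNA_97 replicate 1 (edgeR adjusted p = 0.0143).

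Histones package DNA into nucleosomes, each made of a core of H2A, H2B, H3 and H4 with a linker H1 on the DNA between cores. The clustered genes are expressed mainly in S phase, when new DNA must be packaged, and most of their mRNAs end in a conserved stem-loop (hairpin) in place of a poly(A) tail. The stem-loop binding protein SLBP and the U7 snRNP direct the cut after the hairpin. Replication-independent genes, which encode variants such as H3.3 and H2A.Z, mostly have introns and give polyadenylated mRNA through the cell cycle. The libraries were made with a kit that selects poly(A) RNA, a step that as a rule captures hairpin-ended mRNA poorly, and the level of a clustered gene below is what such a library recovered, not the cell's whole pool.

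The 3' hairpin largely separates the classes in sequence. Representative hairpins are shown because poly(A) selection as a rule captures hairpin-ended mRNA poorly. The search was on hg38 sequence, within 150 bases after the stop codon of each gene's canonical coding transcript in GENCODE. A stem with a mismatch or another opening was not counted. A hairpin was counted only with 6 perfect Watson-Crick pairs that open with GG, around a loop of 4 bases that starts with TT. It was present in 63 of 68 clustered genes (92.6%), in 1 of 12 replication-independent genes, which was H2AX, and in H4C16. It was present in 69 of 19924 protein-coding genes searched (0.346%), members included. Among the 19842 that are not members it was present in 4 (0.0202%). The clustered genes without it were H2AC11, H2AC15, H2BC10, H3C6 and H4C13. Shown 5' to 3' with the hairpin in capitals and 5 flanking bases on each side, on the gene's own strand of hg38, they are as follows.
H1-2: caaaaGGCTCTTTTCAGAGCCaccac
H2BC12: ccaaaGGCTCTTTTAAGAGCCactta
H2BC21: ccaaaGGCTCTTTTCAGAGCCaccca
H4C8: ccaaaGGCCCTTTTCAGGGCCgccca
H4C14: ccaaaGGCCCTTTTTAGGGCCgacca
H2AX: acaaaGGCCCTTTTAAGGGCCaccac
They lie at chr6:26055739-26055764 (-), chr6:27146361-27146386 (-), chr1:149886183-149886208 (-), chr6:26285126-26285151 (-), chr1:149833027-149833052 (+) and chr11:119094893-119094918 (-). The form of H1-2 and H2BC21 was the commonest, in 40 members of the H1, H2A, H2B and H3 families. The form of H2BC12 was in 9 members, that of H4C8 in 10, all H4 genes, and that of H4C14 in 4 H4 genes. H2AX had a form that no other member had.

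Annotated transcripts also differ in where they end. Of the clustered genes' transcripts, 62 ended at the hairpin, and 2 of these held AATAAA, the main poly(A) signal, in their last 50 bases. Another 15 transcripts of 10 genes ran past the hairpin, with a median length of 1547 bases, and 11 of these held AATAAA there. A further 20 transcripts of 13 genes had no hairpin of the searched pattern. For H1-2, H2BC12 and H2AC18 the single annotated transcript ended at the hairpin. For H2BC21 the single transcript of 2224 bases ran 1729 bases past it and held AATAAA near its end.

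The promoters of 63 clustered and 11 replication-independent genes were found among RefSeq promoter windows of GRCh38.p14, which run from 250 bases before to 50 after the start. CCAAT, the box bound by NF-Y, stood on either strand in 85.7% of the clustered, 72.7% of the replication-independent and 34.6% of all 35116 windows. TATAAA stood in 65.1%, 36.4% and 11.5%. CTA and TAG with any 4 bases between them, the outline of the MEF2 site, stood in 15 of the 63 clustered windows (23.8%), in none of the 11 replication-independent windows and in 2.73% of all windows, and in 5 of the 15 it overlapped a TATAAA. Of the 13 clustered genes higher in the KO libraries below, 3 had it, against 5 of 16 tested clustered genes that were not called. A strict MEF2 site has only A or T as its 4 inner bases, which this search did not require. Matches with a G or C there, such as CTATAAGTAG in H2AC16 and CTATAACTAG in H2AC8, were counted. The palindrome TTACGTAA, which PAR bZIP factors such as HLF bind, was in none of either class and in 0.125% of all windows. Neighbouring divergent genes can share the sequence of a window. The 250 bases before the start of 4 genes are shown to set a clustered linker gene, 2 clustered core genes and a variant gene side by side, 5' to 3' on the gene's strand, with CCAAT and TATAAA on either strand in capitals.
H1-2: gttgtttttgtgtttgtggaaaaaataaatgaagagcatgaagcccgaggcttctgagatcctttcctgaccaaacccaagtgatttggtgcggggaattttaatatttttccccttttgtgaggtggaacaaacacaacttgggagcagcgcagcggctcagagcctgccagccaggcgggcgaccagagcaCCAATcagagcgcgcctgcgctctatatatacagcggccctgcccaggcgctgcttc
H2BC21: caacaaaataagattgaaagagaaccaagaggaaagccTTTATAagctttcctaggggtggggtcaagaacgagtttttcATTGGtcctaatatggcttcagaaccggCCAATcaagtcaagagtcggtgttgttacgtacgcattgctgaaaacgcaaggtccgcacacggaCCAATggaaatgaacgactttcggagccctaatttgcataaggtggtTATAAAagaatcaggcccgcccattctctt
H4C8: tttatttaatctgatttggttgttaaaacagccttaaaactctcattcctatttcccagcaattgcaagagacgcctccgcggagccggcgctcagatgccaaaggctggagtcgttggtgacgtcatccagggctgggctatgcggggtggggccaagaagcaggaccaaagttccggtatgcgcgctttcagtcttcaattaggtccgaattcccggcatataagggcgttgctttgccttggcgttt
H2AZ1: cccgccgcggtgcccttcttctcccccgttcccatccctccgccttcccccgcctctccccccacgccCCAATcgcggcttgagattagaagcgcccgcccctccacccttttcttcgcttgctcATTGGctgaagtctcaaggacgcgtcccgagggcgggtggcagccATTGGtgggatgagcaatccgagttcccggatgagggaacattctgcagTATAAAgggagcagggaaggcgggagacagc
These are chr6:26056471-26056720 (-), chr1:149886683-149886932 (-), chr6:26285535-26285784 (-) and chr4:99950276-99950525 (-) of GRCh38.p14. H2BC21 and H2AZ1 held both motifs, H1-2 held CCAAT only and H4C8 held neither.

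The deposited TPM, an abundance per transcript length, was used to compare levels between genes. The 7 highest members were all replication-independent. H3-3A, which encodes H3.3, had 1067 ± 22.4 TPM in SCR1 (SD, n = 3) and 1006 ± 37.7 TPM in the KO libraries (SD, n = 6). H2AZ1, which encodes H2A.Z, followed in SCR1 with 954 ± 8.77 TPM and H3-3B, the other H3.3 gene, with 751 ± 24.1 TPM. MACROH2A1, which encodes an H2A variant with a macrodomain, had 451 ± 2.04 TPM, H2AZ2 295 ± 2.25 TPM, H2AX 206 ± 15.5 TPM and the linker variant H1-10 133 ± 16.5 TPM. The SCR1 ranges of these neighbours did not overlap.

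Clustered genes were detected at lower levels per length. H2BC12 (99.2 ± 6.75 TPM) and H1-2 (92.2 ± 7.34 TPM) led in SCR1, and their ranges overlapped, from 92.6 to 106 and from 86.2 to 100.4 TPM. H2AC18 followed, between 40.03 and 67.6 TPM. In the KO libraries H1-2 lay between 132 and 151 TPM and H1-10 between 126 and 169 TPM, so the linker gene of the cluster overlapped the linker variant there, while in SCR1 H1-10 was at 116 TPM or more. Of the other clustered genes, 7 had no count in any library (H1-1, H2AC1, H2AC25, H2AC4, H2BC1, H3C14 and H4C6), and 22 had fewer than 10 counts over the 9 libraries. Among the replication-independent genes, H2AJ, H1-7 and H1-8 were at 0 counts throughout, and MACROH2A2 had at most 4 counts in a library.

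**Figure D1:**
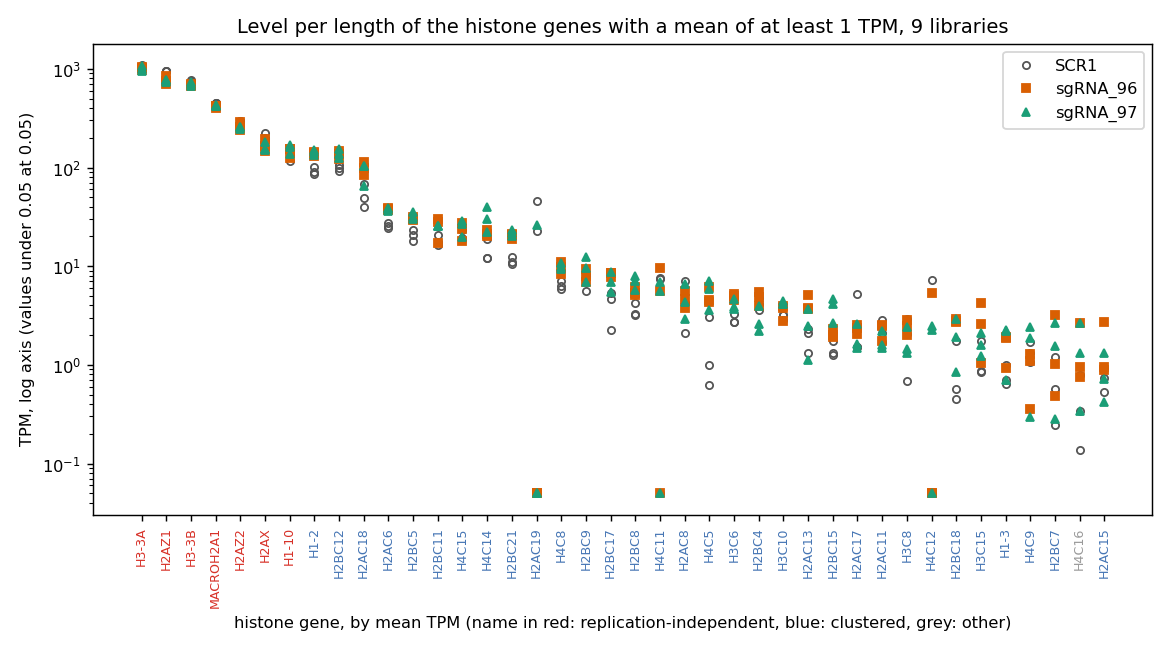
TPM on a log axis of each histone gene with a mean of at least 1 TPM, with 1 point for each of the 9 libraries and values under 0.05 drawn at 0.05. The 7 replication-independent genes that were detected stand at the left, above the clustered genes on average over the libraries, and H2AC19 and H4C11 fall to 0 in some libraries.

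Summed over the class, clustered histone RNA took a larger share in the KO libraries and replication-independent RNA a smaller share. The clustered sum was 203, 197 and 217 CPM in SCR1 replicates 1, 3 and 4, where CPM is the count relative to the TMM-scaled library size. It was 305, 320 and 283 CPM with sgRNA_96 and 305, 319 and 321 CPM with sgRNA_97, so each KO library lay above each control. The mean rose from 206 ± 10.4 (SD, n = 3) to 309 ± 14.6 CPM (SD, n = 6), a ratio of 1.501, and on the TPM scale the ratio was 1.43. The replication-independent sum was 3030, 2991 and 3112 CPM in SCR1 and between 2781 and 2830 CPM in the KO libraries with a median of 2798 CPM, a ratio of 0.920. The clustered genes thereby made up 9.94 to 10.7% of all histone TPM in SCR1 and 14.3 to 16.6% in the KO libraries. These sums were not tested, and in bulk RNA a change in the share of cells that express a gene cannot be told apart from a change in RNA per cell.

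Sums by family moved the same way, each with no overlap between KO and control libraries. Clustered H4 RNA lay between 37.1 and 39.4 CPM in SCR1 and between 52.8 and 68.0 CPM in KO. H2B went from 63.9 ± 4.58 to 97.6 ± 4.85 CPM and H1 went from 41.1 ± 3.96 to 62.2 ± 3.61 CPM (SD, n = 3 and 6). H2A went from 52.9 ± 2.02 to 74.8 ± 3.37 CPM and H3 from 9.59 ± 0.949 to 13.6 ± 1.02 CPM. The KO to SCR1 ratio of the sums was 1.47 for the chromosome 6 cluster and 1.56 for the 1q21 cluster.

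To determine which histone genes differ when the enhancer is targeted, each gene was tested with edgeR's quasi-likelihood test over 14436 genes that passed a filter on low counts. The filter kept 29 of 68 clustered genes, 7 of 12 replication-independent genes and H4C16, and 45 members were too low to test. In the KO libraries 13 clustered genes were higher with an adjusted p under 0.05 and none was lower, where over all genes 10.1% were called higher and 10.6% lower. The called genes were H1-2, H2AC6, H2AC18, H2BC5, H2BC11, H2BC12, H2BC15, H2BC21, H3C6, H4C5, H4C8, H4C14 and H4C15. Their log2 fold changes lay between 0.37 and 1.60. The median over the 29 tested was 0.62, against 0.0028 over all genes tested. Among all 61 clustered genes that had any count, tested or not, the mean CPM was higher in KO than in SCR1 for 42 and lower for 19.

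A gene could pass the filter on its KO libraries alone, so the count over tested genes is a description. H1-3, H2BC18 and H3C15 were under the filter's level of 0.548 CPM in every control, and none of them was called. Of 17 clustered genes at or above that level in every control, 12 were called, all higher. The ranges of the groups were separate for 14 clustered genes, all higher in KO, and for 3 replication-independent genes, all lower, where 20.3% of all genes tested did not overlap.

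Most replication-independent genes went the other way. Of the 7 tested, 4 were lower in the KO libraries (H2AX, H2AZ1, H2AZ2 and H3-3A) and none was higher. Over all genes 10.6% were called lower and 10.1% higher. The median log2 fold change of the 7 was -0.12, with 6 negative and 1 positive. With an offset for the trend with GC content, 4 were lower and H1-10 was higher, and with no filter 3 were lower and H1-10 was higher. H1-10 was also higher without sgRNA_96 replicate 4 (adjusted p = 0.0476). H2AZ1 was called in each of 19 alternative settings, while H2AX, H2AZ2 and H3-3A lost their call in 4, 7 and 12 of them.

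**Figure D2:**
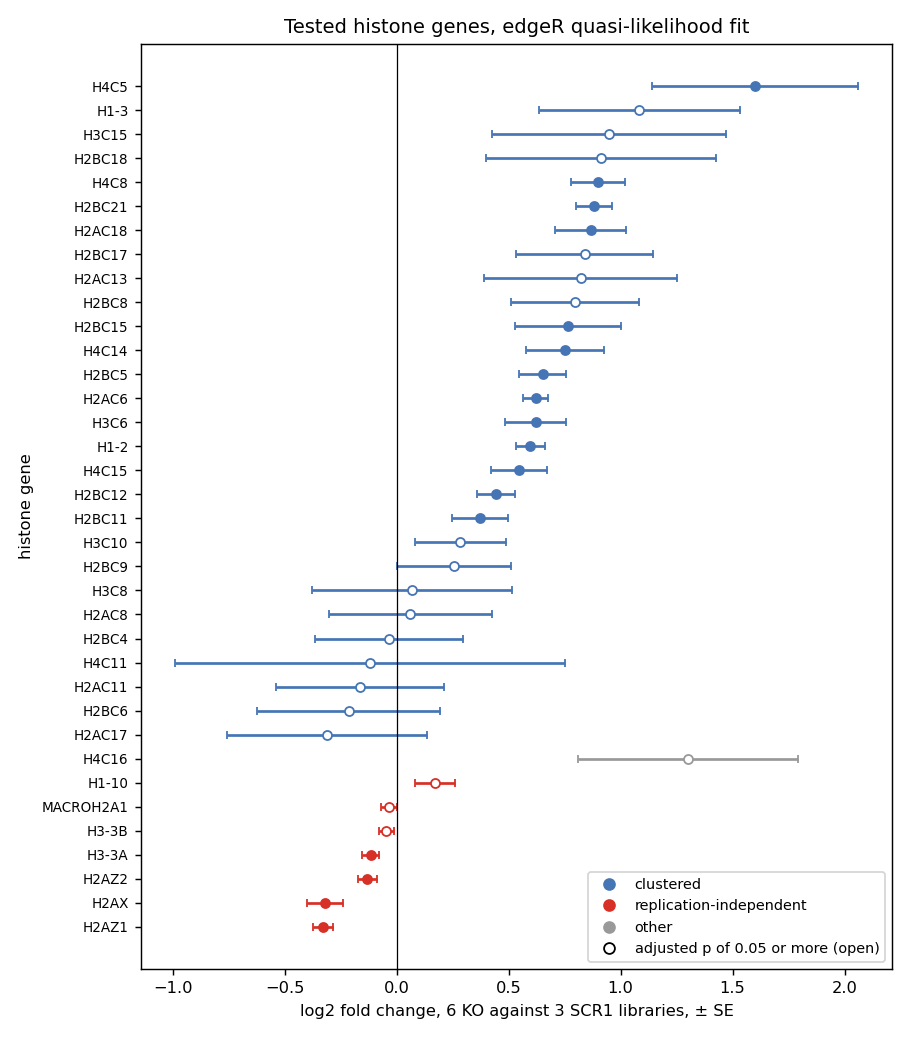
Log2 fold change of the tested histone genes, 6 KO against 3 SCR1 libraries, with bars of ± SE and filled points for an adjusted p under 0.05. Filled clustered genes lie between 0.37 and 1.60 and filled replication-independent genes between -0.33 and -0.12; H2AC19, whose reads are shared with H2AC18, is not drawn.

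Among linker histones, H1-2 is the main clustered gene recovered here, and its single annotated transcript ends at the hairpin (chr6:26055740-26056470, minus strand). It was at 39.6, 36.7 and 44.1 CPM in SCR1 replicates 1, 3 and 4. With sgRNA_96 it was at 61.8, 62.3 and 55.2 CPM, and with sgRNA_97 at 58.6, 62.4 and 64.4 CPM. All KO libraries lay above all controls, with a log2 fold change of 0.60 (SE 0.06, adjusted p = 1.29e-05). H1-3 was near the limit of detection, with 0.305 to 0.456 CPM in SCR1 and 0.331 to 1.05 CPM in KO, and its log2 fold change of 1.08 (SE 0.45) did not pass the threshold (adjusted p = 0.0957). H1-10, the replication-independent linker variant, was at 123, 137 and 157 CPM in SCR1 and between 127 and 176 CPM in KO with a median of 163 CPM. The groups overlapped, and its log2 fold change of 0.17 (SE 0.09) did not pass the threshold (adjusted p = 0.196).

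Among clustered H2A genes, H2AC6 was the most even. It was at 27.7, 28.3 and 28.2 CPM in SCR1, at 43.8, 42.9 and 42.4 CPM with sgRNA_96 and at 45.0, 43.6 and 41.2 CPM with sgRNA_97. The spread within each group was small beside the gap between them, with a log2 fold change of 0.62 (SE 0.05, adjusted p = 1.89e-06). Most of its counts, 87.5% in SCR1 and 89.7% in KO, were assigned to a spliced transcript of 1668 bases that runs 1128 bases past the hairpin.

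H2AC18 and H2AC19 at 1q21 are near-identical copies, and their reads were divided between them differently from library to library. H2AC19 was at 6.55, 0 and 13.1 CPM in SCR1, at 7.41 CPM in sgRNA_97 replicate 1 and at 0 in the other 5 KO libraries. Taken alone, H2AC18 had a log2 fold change of 0.87 (SE 0.16, adjusted p = 0.00130) and H2AC19 one of -2.54 (SE 1.14, adjusted p = 0.130). Their sum, an alternative added after the data were seen, was at 20.6, 18.6 and 24.5 CPM in SCR1, at 27.9, 32.2 and 22.6 CPM with sgRNA_96 and at 25.9, 29.0 and 28.7 CPM with sgRNA_97. In the sum sgRNA_96 replicate 4 overlapped the controls, and the log2 fold change was 0.38 (SE 0.10, adjusted p = 0.0147). The larger value of H2AC18 alone is therefore uncertain, and so is the opposite sign of H2AC19.

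Of 11 clustered H2B genes tested, 5 were called higher, where over all genes 10.1% were. H2BC21 is the gene whose only transcript runs past the hairpin (chr1:149884459-149886682, minus strand). It was at 17.0, 17.3 and 20.1 CPM in SCR1, at 30.3, 34.4 and 31.5 CPM with sgRNA_96 and at 32.3, 37.2 and 34.4 CPM with sgRNA_97. No library of either guide came near the control range, and the log2 fold change was 0.88 (SE 0.08, adjusted p = 2.70e-06).

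H2BC12, whose only transcript ends at the hairpin, was at 27.0, 22.8 and 25.1 CPM in SCR1, at 37.2, 34.7 and 29.3 CPM with sgRNA_96 and at 34.4, 31.4 and 38.0 CPM with sgRNA_97. Its groups did not overlap either, with a log2 fold change of 0.44 (SE 0.08, adjusted p = 0.00164). H2BC12 shares 71.0% of its 31-base words with other genes, above all H2BC12L, which had 1 count in 1 library and 0 in the others. H2BC5 was at 7.05, 7.06 and 8.45 CPM in SCR1 and between 10.3 and 12.6 CPM in KO, with a median of 12.03 CPM and a log2 fold change of 0.65 (SE 0.11, adjusted p = 0.000482). H2BC15 was low, at 1.20 to 1.83 CPM in SCR1 and 2.08 to 3.21 CPM in KO, and its log2 fold change of 0.76 (SE 0.24, adjusted p = 0.0304) lost its call in 10 of 19 alternative settings. Among these were the omission of SCR1 replicate 1, 3 or 4, sgRNA_96 replicate 3, or sgRNA_97 replicate 1 or 3, with adjusted p from 0.0507 to 0.113. H2BC11 had a log2 fold change of 0.37 (SE 0.12, adjusted p = 0.0459).

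H3 genes were recovered least. H3C6 had all its counts on a spliced transcript of 2679 bases without the hairpin. It was at 5.32, 5.18 and 6.47 CPM in SCR1, at 10.3, 8.89 and 9.32 CPM with sgRNA_96 and at 9.12, 7.57 and 7.06 CPM with sgRNA_97. The groups did not overlap, with a log2 fold change of 0.62 (SE 0.14, adjusted p = 0.00486). H3C10 and H3C8 did not pass the threshold. H3C10 was at 2.41 to 2.69 CPM in SCR1 and 2.22 to 3.77 CPM in KO, with a log2 fold change of 0.28 (SE 0.20, adjusted p = 0.355), and H3C8 was under 1 CPM in all libraries with a log2 fold change of 0.07 (SE 0.45, adjusted p = 0.932).

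Of 5 clustered H4 genes tested, 4 were called higher, where over all genes 10.1% were. The 4 include the near-identical copies H4C14 and H4C15. H4C8 (chr6:26277609-26285638, minus strand) was at 5.53, 4.67 and 4.30 CPM in SCR1, at 8.13, 9.52 and 9.43 CPM with sgRNA_96 and at 8.53, 9.47 and 9.26 CPM with sgRNA_97. Every KO library was well above the highest control, with a log2 fold change of 0.90 (SE 0.12, adjusted p = 0.000101). In the KO libraries all its counts were on the transcripts that run past the hairpin. H4C8 overlaps 3 gene models on the other strand. The strand setting is not known, so some of its reads may belong to them.

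H4C14 and H4C15 at 1q21 share nearly all their sequence, and single values depend on how reads were divided. Alone, H4C14 had a log2 fold change of 0.75 (SE 0.18, adjusted p = 0.00677) and H4C15 one of 0.55 (SE 0.12, adjusted p = 0.00534). Without SCR1 replicate 1 the value of H4C14 was 0.61 (adjusted p = 0.0651). H4C15 lost its call in all 3 limma fits on the log2 TPM scale, with adjusted p from 0.372 to 0.57. H4C14 lost its call in 1 of these fits (limma adjusted p = 0.112). Their sum was at 29.3, 32.6 and 31.9 CPM in SCR1, at 42.5, 48.5 and 43.7 CPM with sgRNA_96 and at 49.9, 56.8 and 51.3 CPM with sgRNA_97. The sum stood apart in each KO library, with a log2 fold change of 0.65 (SE 0.08, adjusted p = 6.18e-05). With the 4 near-identical pairs summed, 12 clustered genes or pairs were called, all higher.

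H4C5 had the largest fold change of the called genes and the fewest reads. It had 17, 2 and 4 counts in SCR1, 13, 24 and 15 with sgRNA_96 and 20, 13 and 18 with sgRNA_97. Its log2 fold change was 1.60 (SE 0.46, adjusted p = 0.0203), and without SCR1 replicate 3 or 4 it was 1.28 (adjusted p = 0.0886) or 1.37 (adjusted p = 0.106). Without SCR1 replicate 1, which held 17 of the control counts, it was 2.61 (adjusted p = 0.00857), so the size of the change rests on single control libraries. H4C16, outside the clusters, was at 0.189 to 0.627 CPM in SCR1 and 0.434 to 1.31 CPM in KO, with a log2 fold change of 1.30 (SE 0.49) that did not pass the threshold (adjusted p = 0.0693).

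**Figure D3:**
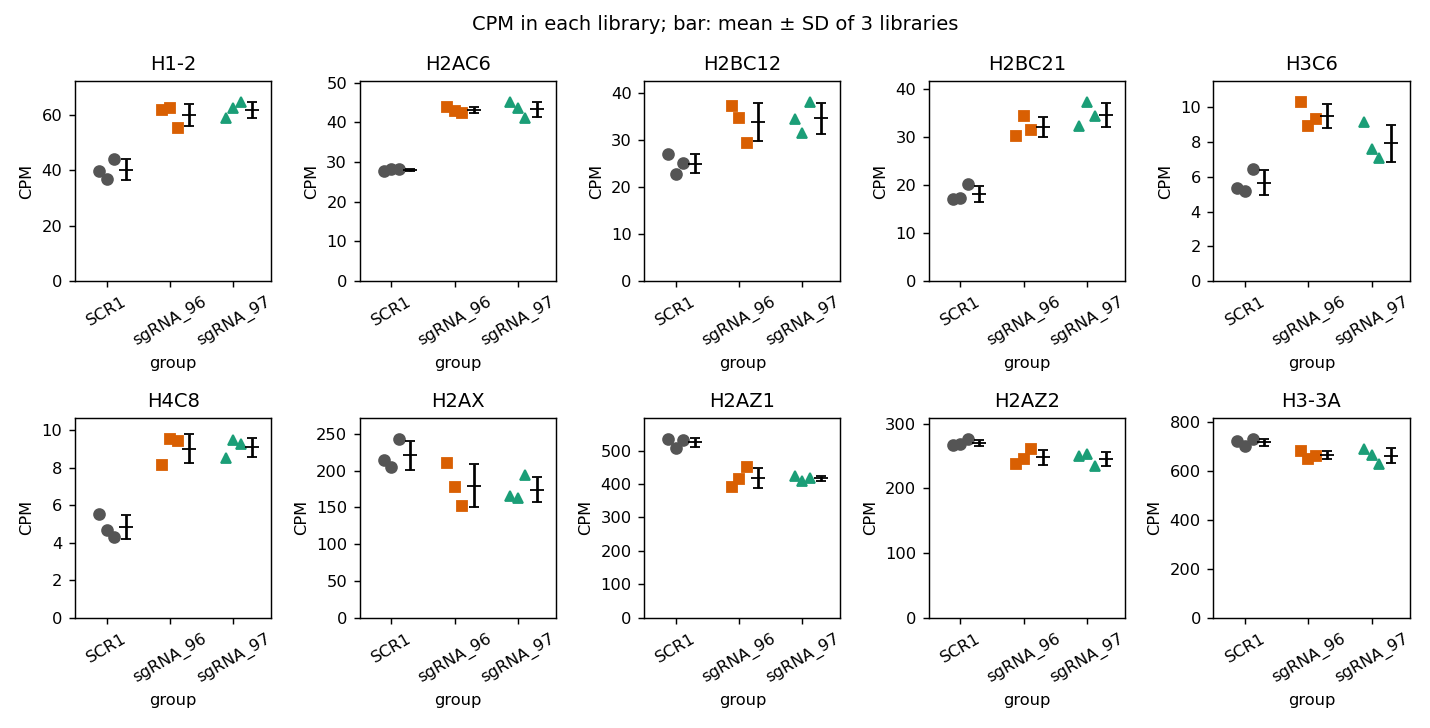
CPM of 6 clustered genes and 4 replication-independent genes in each library of SCR1, sgRNA_96 and sgRNA_97, with the mean and SD of the 3 libraries beside the points and axes from 0. For the 6 clustered genes all KO points lie above all SCR1 points, while H2AX in sgRNA_96 replicate 1 lies within the SCR1 range.

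Among the H2A variants, H2AZ1 changed most firmly. H2A.Z replaces H2A in nucleosomes at promoters and enhancers. H2AZ1 was at 534, 508 and 530.4 CPM in SCR1, at 391, 415 and 449.7 CPM with sgRNA_96 and at 425, 408 and 417 CPM with sgRNA_97. Each KO library was below each control, with a log2 fold change of -0.33 (SE 0.04, adjusted p = 8.16e-05). Its paralog H2AZ2 was at 267, 269 and 276 CPM in SCR1 and between 234 and 261 CPM in KO, with a median of 247 CPM and a log2 fold change of -0.13 (SE 0.04, adjusted p = 0.0362). The H2AZ2 call was lost without SCR1 replicate 1, 3 or 4, sgRNA_96 replicate 3 or sgRNA_97 replicate 4, with adjusted p from 0.0709 to 0.148.

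H2AX, whose protein is phosphorylated at DNA double-strand breaks, was at 215, 205 and 243 CPM in SCR1, at 209.9, 178 and 152 CPM with sgRNA_96 and at 166, 163 and 193 CPM with sgRNA_97. It was below all controls in 5 of 6 KO libraries, with a log2 fold change of -0.32 (SE 0.08, adjusted p = 0.0116). Without SCR1 replicate 4 the value was -0.25 and the adjusted p 0.0974. Both its annotated transcripts run past the hairpin. MACROH2A1 was at 629, 642 and 628 CPM in SCR1 and between 596 and 629.7 CPM in KO with a median of 621 CPM, with a log2 fold change of -0.03 (SE 0.04, adjusted p = 0.534).

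The H3.3 genes had small fold changes. H3-3A was at 721, 701 and 728 CPM in SCR1, at 679.7, 649 and 659.7 CPM with sgRNA_96 and at 688, 665 and 627 CPM with sgRNA_97. The groups did not overlap, and the log2 fold change was -0.12 (SE 0.04, adjusted p = 0.0417). Leaving out SCR1 replicate 1, 3 or 4, sgRNA_96 replicate 3 or 4, or sgRNA_97 replicate 3 or 4 ended the call, with adjusted p from 0.0532 to 0.160. H3-3B was at 541, 530.0 and 549 CPM in SCR1 and between 514 and 535 CPM in KO with a median of 521 CPM, with a log2 fold change of -0.05 (SE 0.03, adjusted p = 0.385).

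Each guide was also compared with SCR1 on its own, and these comparisons share the control libraries. With sgRNA_96, 9 tested clustered genes were higher and 1 lower, where over all genes 5.78% were higher and 5.41% lower. The lower gene was H2AC19, at 0 in all 3 libraries of that guide, and with near-identical copies summed 8 were higher and none lower. With sgRNA_97, 12 clustered genes were higher and none lower, where over all genes 7.35% were higher and 7.76% lower. Of the replication-independent genes, H2AZ1 was lower with sgRNA_96, and H2AZ1 and H2AX were lower with sgRNA_97.

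Side by side, the log2 fold changes with sgRNA_96 and sgRNA_97 were 0.83 (SE 0.09) and 0.94 (SE 0.09) for H2BC21 and 0.57 (SE 0.08) and 0.62 (SE 0.08) for H1-2. For H4C8 they were 0.89 (SE 0.14) and 0.90 (SE 0.14), and for H3C6 0.74 (SE 0.15) and 0.48 (SE 0.15). H2AZ1 fell by 0.33 with either guide (SE 0.05). In the direct comparison of sgRNA_97 with sgRNA_96, edgeR called none of the 37 members tested and 0.0208% of all genes. At an unadjusted p under 0.05 there were 3 of 29 clustered genes and no replication-independent gene, against 503 of 14436 over all genes. DESeq2 called 1 clustered gene, H2AC19, and 8 genes in all. For the 13 clustered genes called in KO against SCR1, the log2 difference between the guides lay between -0.26 and 0.50.

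The clustered genes' counts were then divided by the kind of transcript to which they were assigned. Transcripts that end at the hairpin summed to 106, 93.2 and 112 CPM in SCR1 and to between 128 and 157 CPM in KO with a median of 146 CPM, a ratio of means of 1.40. Transcripts that run past the hairpin summed to 78.8, 80.7 and 82.3 CPM in SCR1 and to between 121 and 144 CPM in KO with a median of 135 CPM, a ratio of 1.64. Transcripts with no hairpin went from 21.6 ± 2.39 to 31.7 ± 2.05 CPM, a ratio of 1.47. Higher sums in KO were therefore seen for each kind, and the ratios were not tested against each other. Where transcripts of a gene share sequence, this division rests on Salmon's estimate.

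Levels were also set beside the annotated forms. Of 68 clustered genes, 17 had a transcript that runs past the hairpin or is spliced, and their median was 3.94 TPM over all libraries, against 0.604 TPM for the 51 with a short single-exon transcript only. The ranges overlapped, and the 3 most abundant clustered genes, H1-2, H2BC12 and H2AC18, were among the latter, which reached 125 TPM against 33.8 TPM for the former. The medians were not tested against each other. Of the former 13 were tested and 9 called, with a median log2 fold change of 0.62. Of the latter 16 were tested and 4 called, with a median of 0.52. Over all genes tested, 10.1% were called higher and 10.6% lower in KO. The counts called were not tested against each other, and the 2 groups differed in level.

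**Figure D4:**
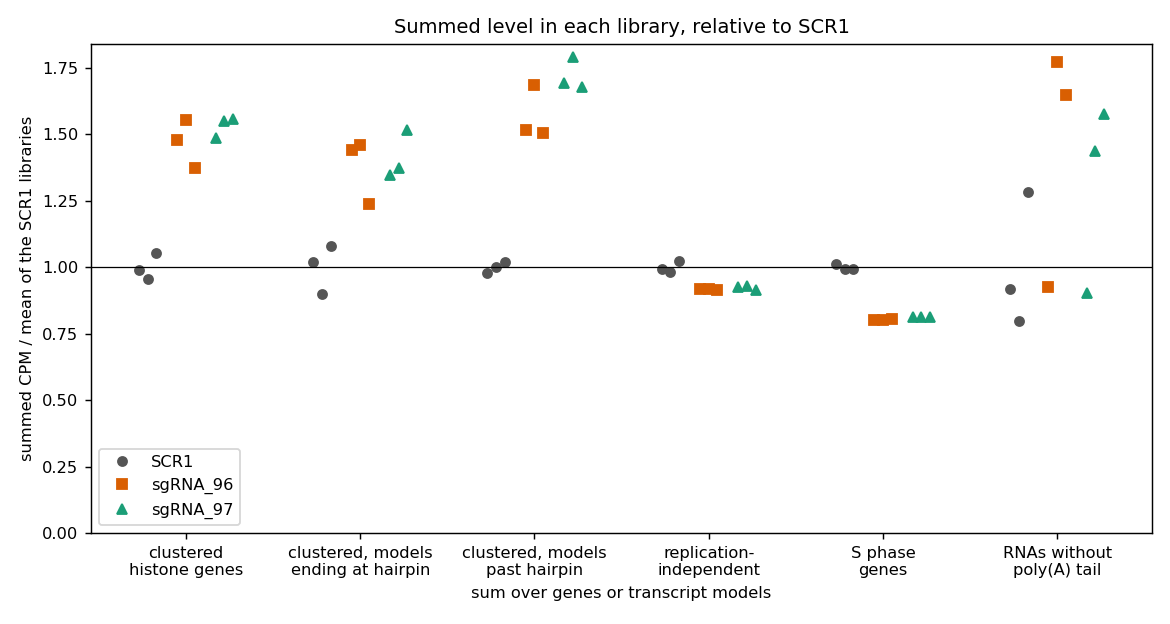
Summed CPM in each library divided by the mean of the SCR1 libraries, for clustered and replication-independent histone genes, for clustered transcripts by where they end, for S phase genes and for RNAs without a poly(A) tail. All KO points of the clustered sums lie above SCR1 and those of the replication-independent and S phase sums below, while the sum of RNAs without a poly(A) tail overlaps SCR1 in replicate 1 of each KO guide.

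RNAs that lack a poly(A) tail were measured because recovery of such RNA can differ between poly(A)-selected libraries. Of 15 listed, 6 passed the filter. SNORD3A, the U3 small nucleolar RNA, was called higher at a log2 fold change of 1.24 (SE 0.41, adjusted p = 0.0402), and its SCR1 values were 0.305, 2.05 and 2.41 CPM against 2.58 to 4.66 CPM in KO. RN7SK was at 4.70 ± 1.05 CPM in SCR1 and 6.79 ± 2.17 CPM in KO, with a log2 fold change of 0.54 (SE 0.24, adjusted p = 0.128). The list's median log2 fold change was 0.46 over those tested, with 5 positive and 1 negative. Its sum was 22.8, 19.8 and 31.8 CPM in SCR1, 22.9, 43.9 and 40.8 CPM with sgRNA_96 and 22.4, 35.7 and 39.0 CPM with sgRNA_97. The KO to SCR1 ratio of this sum was 1.38, in the same direction as the clustered histone sum, and replicate 1 of each KO guide lay within the control range. The part of RNA selection in the clustered values was not tested.

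Of 18 genes that make and cut histone mRNA, 2 were lower in KO and none was higher, a lower share near the 10.6% over all genes tested, with a median log2 fold change of -0.09. SLBP, which binds the hairpin, was at 130.2, 136 and 134 CPM in SCR1 and between 113 and 121 CPM in KO, with a log2 fold change of -0.19 (SE 0.04, adjusted p = 0.00358). SRRT, a partner of the cap-binding complex, had a log2 fold change of -0.25 (SE 0.06, adjusted p = 0.00911).

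Of 27 histone chaperones and remodellers tested, 12 were lower and 2 higher in KO, where 10.6% of all genes tested were lower and 10.1% higher, and the list's median log2 fold change was -0.12. Lower were DNAJC9, a co-chaperone of H3 and H4, at -0.34 (SE 0.04, adjusted p = 6.76e-05), CHAF1A of the replication-coupled chaperone CAF-1 at -0.34 (SE 0.05, adjusted p = 0.000115) and SSRP1 of FACT at -0.31 (SE 0.04, adjusted p = 0.000117). Higher were ATRX, which deposits H3.3 with DAXX, at 0.23 (SE 0.06, adjusted p = 0.00992) and the remodeller INO80 at 0.16 (SE 0.05, adjusted p = 0.0216).

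S phase genes moved opposite to the clustered histone genes. Of 31 DNA replication genes tested, 30 were lower and 1 higher in KO, against the same shares over all genes, with a median log2 fold change of -0.32. Their sum was 6411, 6302 and 6302 CPM in SCR1 and between 5077 and 5158 CPM in KO. GINS2 of the replicative helicase fell by 0.50 on the log2 scale (SE 0.04, adjusted p = 1.82e-06), the licensing factor CDC6 by 0.49 (SE 0.05, adjusted p = 1.03e-05) and MCM2 by 0.41 (SE 0.04, adjusted p = 1.12e-05). POLE, which encodes the leading-strand polymerase, was the higher gene, at 0.13 (SE 0.04, adjusted p = 0.0417). The share of cells in S phase was not measured here, and the part of the cell cycle in the histone values was not tested.

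Markers of B-lineage cells were present, with all 9 tested. Of them 1, DNTT, was called higher in KO and 0 lower, where 10.1% of all genes were higher. Their log2 fold changes were positive for 4 and negative for 5, with a median of -0.02. The B-lineage sum was 4500 to 4699 CPM in SCR1 and 4781 to 5021 CPM in KO. T cell markers passed the filter for none of 4 and erythroid markers for none of 3, with sums of at most 0.0486 CPM and 0 CPM. Of 5 myeloid markers 3 were tested, and MPO and ITGAM were called higher in KO, where 10.1% of all genes were higher. Their log2 fold changes were 1.08 (SE 0.19, adjusted p = 0.000894) and 0.74 (SE 0.11, adjusted p = 0.000162). The other tested myeloid marker had a negative log2 fold change and was not called. The myeloid sum was 26.1 to 27.7 CPM in SCR1 and 30.1 to 35.9 CPM in KO. Of 3 stromal markers 1 was tested and not called, with sums of 19.5 to 24.0 CPM in SCR1 and 17.4 to 20.9 CPM in KO. The part of the myeloid markers' difference in the histone values was not tested.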

How the data were processed

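RNA of 9 HAL-01 libraries was extracted with TRIzol and prepared with a TruSeq mRNA kit. Per the study's methods, reads were trimmed, aligned to hg38 with STAR and quantified with Salmon 1.10.1 through nf-core/rnaseq. The authors deposited estimated counts per transcript, without normalization, and TPM, which Salmon scales by effective transcript length. All 252835 transcripts matched GENCODE release 44 by identifier. The strand setting is not given in the sources used here.

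Counts were summed per gene and rounded. Salmon divides reads that fit several transcripts, so values of near-identical or overlapping genes are uncertain. Several chromosome 6 genes, H2AC6, H2BC5, H3C6 and H4C5 among them, overlap long gene models on their strand. Others, H4C8 among them, overlap gene models on the other strand. filterByExpr of edgeR 4.0.16 (minimum count 10) kept 14436 genes. CPM uses TMM-scaled library sizes. Genes were tested by edgeR's quasi-likelihood method (R 4.3.3). Adjusted p-values are Benjamini-Hochberg values over the whole fit, called under 0.05, and are from edgeR where no tool is given. DESeq2, the study's own test, was run (1.42.0) as an alternative, as was limma 3.58.1 on log2(TPM + 1) and log2(TPM + 0.1). KO against SCR1 used 6 against 3 libraries. Guides were compared in a fit of 3 groups. The code was tested on simulated counts. Replicate pairs differed by 4.31 to 8.59 times the sampling chi-square, more than repeat sequencing of the same library would give. These values cannot show whether the libraries came from separate cultures.

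Members, lists and named genes were chosen with earlier results of these data known. Named were all tested replication-independent genes, the 3 most abundant clustered genes of each family, the 5 largest changes called, MEF2C and up to 3 called genes per list and direction. H2BC11, H4C16, RN7SK and the cell type markers were named after their values were seen. Alternatives were another normalization or test, no filter, a replicate block, length and GC trend offsets and leaving out each library. 1 member is not reported here.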

Additional observations from a re-analysis of the deposited data

Results flagged for a closer look

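Of 26 values examined over the 6 KO libraries (24 genes and 2 sums), 2 had a library that stood far from the other 5, where about 1 in 20 is flagged by chance. H2AC19 was at 7.41 CPM in sgRNA_97 replicate 1 and at 0 CPM in the other 5 KO libraries. Its sum with the near-identical H2AC18 in that library, 25.9 CPM, lay within the 22.6 to 32.2 CPM of the KO libraries. MEF2C was at 552 CPM in sgRNA_97 replicate 1, against 494 to 509.7 CPM in the other KO libraries and 536 to 559 CPM in SCR1.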

How the results depend on the processing

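In KO against SCR1, all clustered genes called were higher in every alternative except with no filter, where 11 were higher and H2AC19 was lower. The count of clustered genes, 13 in the report, was 6 with limma on log2(TPM + 1) without a filter, 12 with log2(TPM + 1) or log2(TPM + 0.1), 14 with DESeq2 and 15 with the GC trend offset. Without a filter log2(TPM + 1) gave 4 for sgRNA_96 and 4 for sgRNA_97 against SCR1. The count of replication-independent genes in KO against SCR1, 4 in the report, was 2 with log2(TPM + 1), log2(TPM + 0.1) or the length trend offset, and 1 with log2(TPM + 1) without a filter. For sgRNA_96 it was 2 with no filter, 0 with log2(TPM + 1) without a filter and 4 with the GC trend offset, of which 3 were lower. For sgRNA_97 it was 1 with log2(TPM + 1) or log2(TPM + 0.1), 0 without a filter on that scale and 5 with the GC trend offset, of which 4 were lower. Between the guides 2 clustered genes were called with no filter (H4C14 and H2AC19) and 1 with DESeq2. The causes were not tested.

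With each library left out in turn, clustered counts ranged from 10 to 13 in KO against SCR1, from 7 to 10 for sgRNA_96, from 8 to 11 for sgRNA_97 and stayed at 0 between the guides. Replication-independent counts ranged from 1 to 4, from 1 to 2, from 1 to 2 and stayed at 0. The lowest KO value, 1, came without SCR1 replicate 4. With SCR1 replicate 1 or 3, sgRNA_96 replicate 3 or sgRNA_97 replicate 4 left out it was 2. H3C8 changed sign without sgRNA_96 replicate 3 (-0.05) and without SCR1 replicate 3 (-0.28), within a range from -0.28 to 0.56 (without SCR1 replicate 1). Deviations of same-numbered libraries correlated between -0.0656 and 0.0552, so no shared deviation by number was seen. Whether same-numbered libraries were handled together cannot be told from these correlations. With the replicate block 13 clustered and 4 replication-independent genes were called in KO against SCR1, 10 and 1 for sgRNA_96, and 11 and 2 for sgRNA_97. Most clustered genes had too few reads in these poly(A)-selected libraries to be tested, and a difference in them was not detectable at this depth.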
